A study of Rattus norvegicus with 16 samples.

Results

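Schwann cells purified from the crushed rat sciatic nerve were compared between day 7 and day 5 after the injury. The comparison used 4 of the 16 libraries of the series, chosen by their titles alone, with 2 libraries of each day, and it covered all genes. The series pairs such purified cells with RNA of the entire nerve, each taken without injury and 3, 5 and 7 days after crush, with 2 libraries in each of 8 groups. The left sciatic nerve of rats was crushed at mid-thigh with forceps at postnatal day 18 under isoflurane, with carprofen for analgesia, and no sham operation was made. Only the nerve distal to the crush was taken, so that both groups were crushed nerve and neither carried a genetic change. The labels give postnatal day 18 for every library, which places collection at postnatal day 23 for day 5 and at postnatal day 25 for day 7 when the days are added to the age at crush. Time since crush and age therefore cannot be told apart in this comparison. The same holds for each day after crush set against uncrushed cells, because the labels give no uncrushed group of a later age. Each library came from a pool of at least 10 nerves, and the labels do not say whether the libraries of a group came from separate sets of animals, so the p-values measure the spread between these samples.

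In immunopanning, cells of the dissociated nerve are led over dishes coated with antibodies. Dishes against CD45 and Thy1 first held back blood-derived cells and fibroblasts, and an antibody to O4, a lipid antigen of Schwann cells, then captured the Schwann cells. Fewer cells of a kind and less RNA per cell cannot be told apart in such bulk libraries.

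Schwann cells wrap axons in myelin, a spiral of membrane rich in cholesterol and galactolipids that is held together by a small set of proteins. When the axon is cut off from its cell body, Schwann cells switch off myelin genes, divide, digest their own myelin and secrete factors that guide regrowing axons. Once axons grow back into the distal nerve, Schwann cells return to myelination.

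The sequences below are the promoters of 5 genes that the results turn on, and each is the run of 250 bases before the annotated start of the gene in RefSeq for the build GRCr8. Pmp22 and Prx are examples of the myelin genes that rose together, and Mag of those that also reach the axon side. Gpnmb is an example of the lysosomal genes that fell, and Cenpf of the mitotic genes. Most myelin promoters held neither the Tead nor the Sox match marked here. Capitals mark a Tead match (GGAATG) and a CCAAT box in Pmp22 and Prx, a Sox match (ACAAAG) in Mag, an AP-1 match (TGANTCA) in Gpnmb and CCAAT boxes in Cenpf, on either strand. The positions are chr10:48294682-48294931 for Pmp22 and chr1:91914171-91914420 for Prx, both on the plus strand. Those of the other three are chr1:95291045-95291294 on the minus strand for Mag, chr4:79340878-79341127 on the plus strand for Gpnmb and chr13:103760887-103761136 on the minus strand for Cenpf.

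Pmp22: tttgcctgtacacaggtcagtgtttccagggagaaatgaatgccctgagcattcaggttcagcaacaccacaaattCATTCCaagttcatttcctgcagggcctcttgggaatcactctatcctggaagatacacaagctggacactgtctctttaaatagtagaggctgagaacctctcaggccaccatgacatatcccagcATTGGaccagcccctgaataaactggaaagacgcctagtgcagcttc
Prx: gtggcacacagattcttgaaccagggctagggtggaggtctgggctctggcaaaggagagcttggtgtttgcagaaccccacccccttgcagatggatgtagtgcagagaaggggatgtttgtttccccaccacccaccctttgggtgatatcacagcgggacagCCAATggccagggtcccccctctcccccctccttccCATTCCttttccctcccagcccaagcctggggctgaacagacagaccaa
Mag: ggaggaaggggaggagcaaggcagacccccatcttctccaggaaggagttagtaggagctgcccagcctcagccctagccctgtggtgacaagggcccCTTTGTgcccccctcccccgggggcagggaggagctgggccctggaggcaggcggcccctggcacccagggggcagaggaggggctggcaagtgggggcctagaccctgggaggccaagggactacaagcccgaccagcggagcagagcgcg
Gpnmb: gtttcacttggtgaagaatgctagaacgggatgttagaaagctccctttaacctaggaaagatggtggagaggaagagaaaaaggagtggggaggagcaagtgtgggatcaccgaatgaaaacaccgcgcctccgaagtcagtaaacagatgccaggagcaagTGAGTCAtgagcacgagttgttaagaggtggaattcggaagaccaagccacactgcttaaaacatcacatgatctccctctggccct
Cenpf: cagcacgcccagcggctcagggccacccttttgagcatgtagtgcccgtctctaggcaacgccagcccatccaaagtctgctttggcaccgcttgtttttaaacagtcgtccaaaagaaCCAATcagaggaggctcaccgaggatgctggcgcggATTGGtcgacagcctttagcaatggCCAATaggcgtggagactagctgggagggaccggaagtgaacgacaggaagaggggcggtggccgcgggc

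A promoter record with a unique symbol was found for 9289 of the 14961 genes tested, among them 95 of the 176 genes that rose and 83 of the 115 that fell. The motifs were searched by their letters on both strands, and none of them contains another. The Tead match stood in 15 of the 95 risen promoters (15.8%), in 8 of the 83 fallen ones (9.64%) and in 9.86% of all. A Sox match stood in 10 risen promoters (10.5%) and 7 fallen ones (8.43%), against 11.7% of all, and the Egr letters (GCGTGGG) in 7.37% and 7.23%, against 6.87% of all. AP-1 was found in 7.37% of the risen and 4.82% of the fallen promoters, against 4.40% of all. The shares for the CCAAT box were 36.8%, 43.4% and 35.9% in the same order. The cell cycle homology letters (CHR, TTTGAA) stood in 10.5% of the risen and 10.8% of the fallen promoters and in 10.4% of all, but in 23 of 43 promoters of mitotic genes (53.5%), which also held a CCAAT box in 30 of 43 (69.8%). These matches describe the letters of the window and were not tested. In Pmp22 the Tead match began 174 bases before the start, and in Prx 49 bases.

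The libraries of day 5 held 18678860 and 16562931 expected counts, and those of day 7 held 17850534 and 12334355. Libraries of the same day correlated across 14961 genes at r = 0.982 at day 5 and 0.979 at day 7, and libraries of different days at 0.975 to 0.976, so the days lay close together. Levels are given as FPKM, fragments scaled to gene length and library size, which can be compared between genes. Schwann cell markers summed to 4958 and 4769 FPKM at day 5 and to 6151 and 5569 at day 7. The 16 macrophage markers summed to 32.9 and 14.2 FPKM and then to 22.2 and 19.6, where whole nerve held 1779 to 1993. None of the 11 that could be tested was called. The 12 fibroblast markers summed to 412 and 320 FPKM at day 5 and 371 and 471 at day 7, against 8153 to 8954 in whole nerve, and only Col3a1 among them was called. In the mast cell list Kit was lower and in the satellite glia list Kcnj10 was higher at day 7. No member was called among the lymphocyte, endothelial, pericyte, perineurial, muscle, adipocyte and red blood cell lists, and no neutrophil marker was high enough to be tested. Summed red blood cell markers differed between the libraries of day 7, at 12.3 and 120 FPKM.

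In all, 291 genes changed between day 5 and day 7, which is 1.95% of the 14961 tested (edgeR quasi-likelihood test with Benjamini-Hochberg adjustment). Of these, 176 were higher at day 7 (1.18%) and 115 lower (0.769%), and 100 changed at least 2-fold, 72 of them upward. The median log2 fold change of all genes was -0.002, and the median size of change of the called genes was 0.78. Median differences between replicates were 0.18 at day 5 and 0.19 at day 7 on the same scale. The number of calls fell to 57 without day 5 replicate 1, to 35 without day 5 replicate 2, to 31 without day 7 replicate 1 and to 123 without day 7 replicate 2. All 291 genes kept their direction in each of these fits, where 50, 31, 28 and 103 of them were still called. In all 4 of these fits 17 genes were called, namely Cldn19, Col2a1, Col4a2, Drp2, Dusp15, Fa2h, Fyb, Gypc, Itgax, Kcna2, Map3k1, NEWGENE_1582994, Nkd2, Pmp22, Sec14l5, Sema5a and Slc36a2. Every other call given below was lost in at least 1 of them, and 171 of the 291 were lost in all 4. With 2 libraries a day, an exact two-sided permutation test of a single gene cannot give a p below 0.333.

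**Figure D1:**
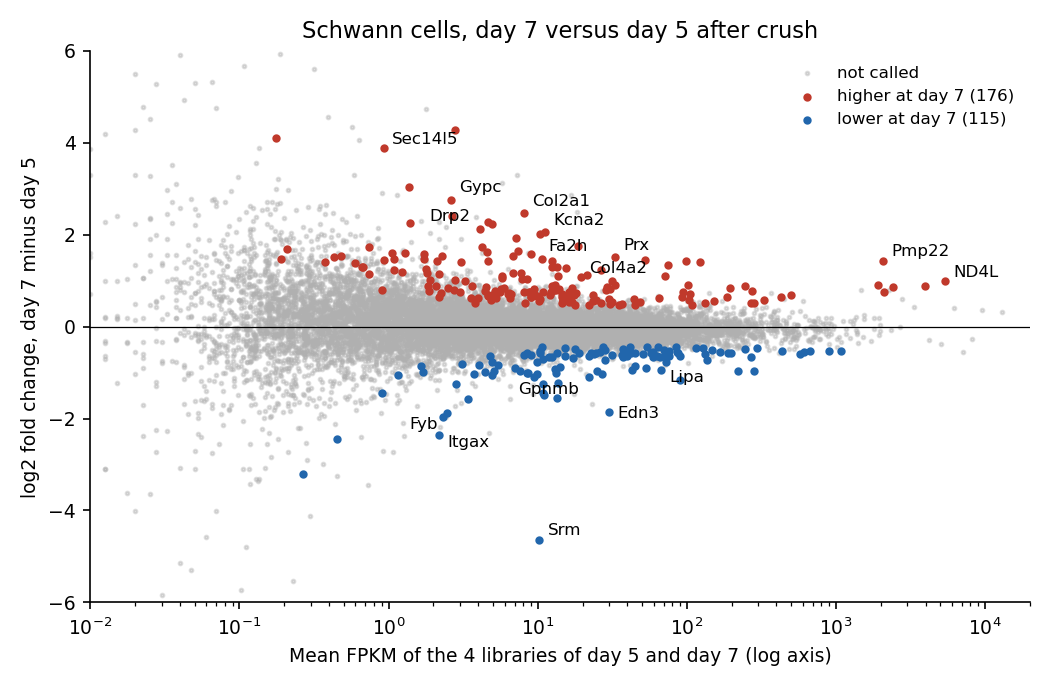
Change of each tested gene in Schwann cells (log2 fold change, day 7 minus day 5, vertical axis) against its mean FPKM over the 4 libraries (log axis). Red points are the 176 genes higher at day 7 and blue points the 115 lower ones; 3 called and 17 other genes lie beyond a log2 fold change of 6 and are not drawn.

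Myelin protein genes rose more than any other functional list by share of members called. Of 23 tested members, 11 were higher at day 7 and none was lower, and their median log2 fold change was 0.55. Pmp22, a membrane protein of compact myelin, stood at 1120.2 and 1118 FPKM at day 5 and at 3353 and 2754 FPKM at day 7. Both libraries of day 7 lay above both of day 5, and the log2 fold change was 1.44 ± 0.11 (SE, adjusted p = 0.00138).

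The 3 steepest rises of the list were those of Ncmap, Drp2 and Prx. Periaxin (Prx) links the myelin sheath to the basal lamina side of the cell, and it went from 15.3 and 18.5 FPKM to 58.3 and 39.6 FPKM (log2 fold change 1.52 ± 0.18, adjusted p = 0.00522). Drp2, the partner of periaxin in a dystroglycan complex, went from 1.21 and 1.81 FPKM to 8.13 and 5.15 FPKM (2.12 ± 0.23 on the log2 scale). Ncmap, a protein of noncompact myelin, reached 8.30 and 7.02 FPKM from 1.37 and 1.79 FPKM (2.27 ± 0.33). Cldn19, a tight junction protein of the sheath, rose from 64.9 and 67.3 FPKM to 208 and 148 FPKM. In every one of these genes the libraries of the 2 days did not overlap.

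Mag and Gldn act at the contact with the axon. Mag, an adhesion protein of the innermost membrane, rose from 7.78 and 6.79 FPKM to 19.9 and 15.1 FPKM (log2 fold change 1.29 ± 0.17, adjusted p = 0.010). Gliomedin (Gldn), which gathers sodium channels at the forming node, rose from 6.24 and 9.38 FPKM to 21.9 and 16.6 FPKM. Mal and Pmp2, a raft protein and a fatty acid binding protein of myelin, rose by log2 fold changes of 1.09 ± 0.14 and 0.78 ± 0.16. Mbp was measured at 469.5 and 517 FPKM at day 5 and at 799 and 633 FPKM at day 7, and its log2 fold change of 0.55 ± 0.13 did not pass the threshold (adjusted p = 0.0713). Cnp and Dhh showed no such difference, with log2 fold changes of -0.07 ± 0.10 and -0.16 ± 0.10. Fewer myelin members were called without either day 5 replicate or without day 7 replicate 1, but not without day 7 replicate 2.

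Most of these genes stayed below their uncrushed mean at day 7, where the uncrushed cells are labelled postnatal day 18. Pmp22 stood at 12.9% of its uncrushed mean at day 5 and at 35.3% at day 7, and Prx at 12.7% and 36.9%. Cldn19 reached 75.9% of the uncrushed level. Pmp2 reached 172%, from 99.3% at day 5. Drp2 and Mal were still at 9.27% and 18.6%.

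**Figure D2:**
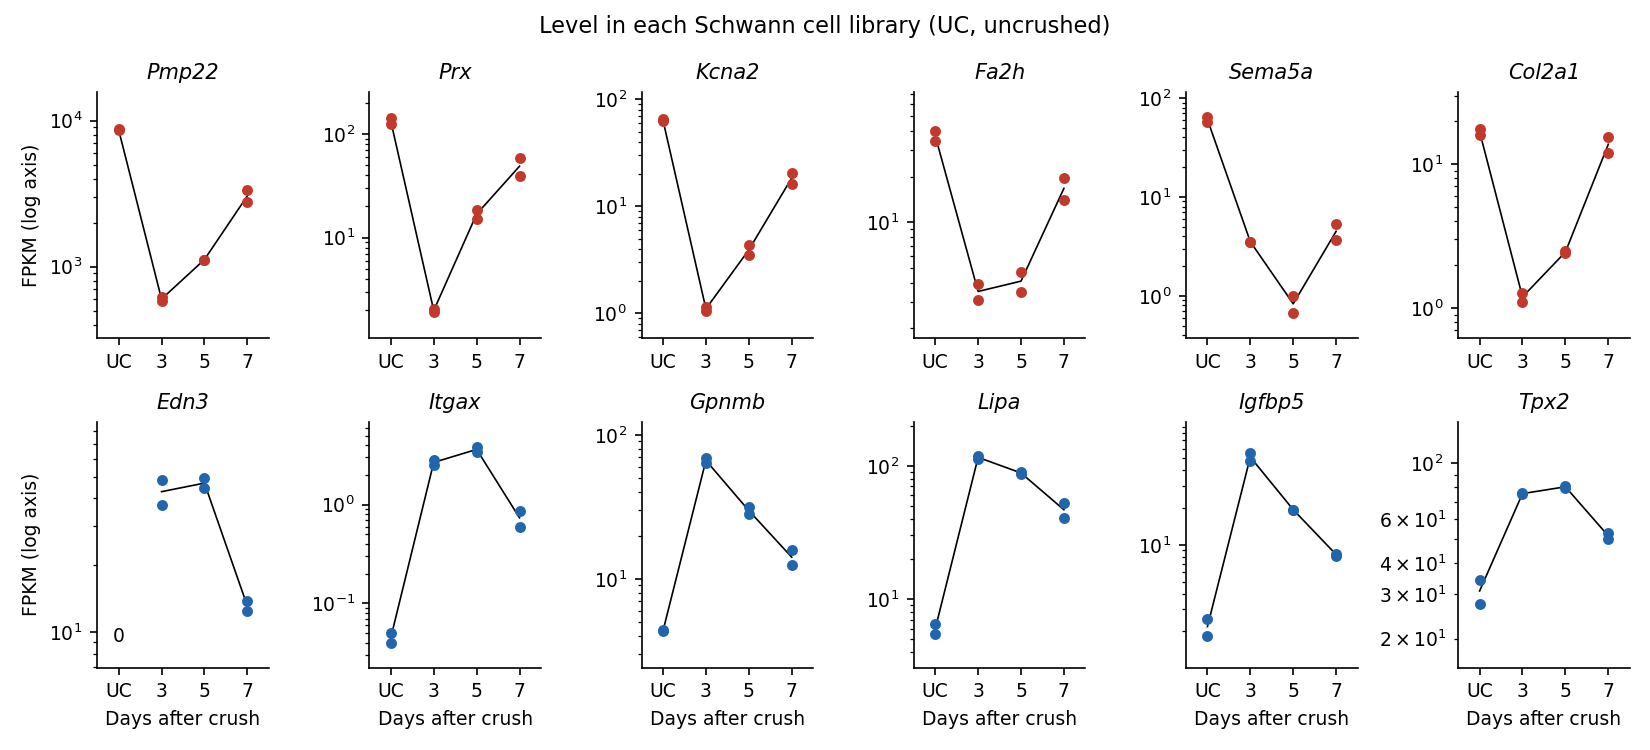
FPKM of 12 genes in each of the 8 Schwann cell libraries (points, log axis) in uncrushed nerve (UC) and 3, 5 and 7 days after crush, with a line through the group means; red genes rose and blue genes fell from day 5 to day 7. Edn3 was listed at 0 in both uncrushed libraries, and among the red genes Sema5a had its lowest mean at day 5.

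Few genes of lipid synthesis were called, but their share lay above the 1.95% of all genes tested. It was 17.4% for fatty acid and myelin lipid synthesis and 15.0% for cholesterol synthesis. Fa2h, which makes the hydroxylated fatty acids of myelin galactolipids, rose from 4.71 and 3.49 FPKM to 19.6 and 13.99 FPKM (log2 fold change 2.02 ± 0.22, adjusted p = 0.00379). Elovl7, an elongase of long fatty acids, rose from 2.13 and 1.26 FPKM to 8.75 and 7.51 FPKM. The desaturase Fads1 and the malic enzyme Me1 fell by 0.59 ± 0.09 and 0.76 ± 0.16 on the log2 scale. These were the 4 called genes among 23 tested for fatty acid and myelin lipid synthesis, whose median was 0.30. Fa2h was called with any 1 library left out, Elovl7 without day 5 replicate 1 or day 7 replicate 2, Fads1 without day 7 replicate 2 only, and Me1 in none of these fits.

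In the cholesterol pathway 3 of 20 genes rose and none fell, with a median of 0.25. They included Fdft1, which makes squalene, and Hsd17b7, an enzyme of the late pathway. Fdft1 went from 8.91 and 9.34 FPKM to 16.5 and 14.3 FPKM (0.74 ± 0.11 on the log2 scale, adjusted p = 0.0146), and Hsd17b7 from 1.41 and 1.45 FPKM to 2.90 and 2.57 FPKM. All 20 genes of this pathway were lower at day 3 than in uncrushed cells, and at day 7 Fdft1 stood at 13.8% and Hsd17b7 at 22.4% of the uncrushed mean. No member was called without either day 5 replicate or without day 7 replicate 1, and 1 was called without day 7 replicate 2. Among 16 genes of sterol regulation and uptake none was called.

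Ion channels and transporters formed another rising group, with 6 of 25 tested members higher, none lower and a median of 0.46. Kcna2, a Kv1 potassium channel, rose from 4.35 and 3.48 FPKM to 20.5 and 16.3 FPKM (log2 fold change 2.06 ± 0.16, adjusted p = 0.00138). Its relative Kcna1 rose from 8.01 and 9.87 FPKM to 24.7 and 19.0 FPKM. Kcnj10, an inward rectifier that takes up potassium around axons, rose from 12.4 and 14.7 FPKM to 33.2 and 25.5 FPKM, and at day 7 it stood at 140.4% of its uncrushed mean. Further risen members were the cation channel Trpm3 (0.69 ± 0.10 on the log2 scale) and Slc36a2, a carrier of small amino acids (1.63 ± 0.16). The count of risen members was 3 without either day 5 replicate and 2 without day 7 replicate 1.

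Adhesion molecules of the node and of the axon contact moved both ways, with 4 of 27 higher and 4 lower. Mag and Gldn rose together with Ncam1 and the scaffold protein Ank2. Ncam1, an adhesion molecule of nonmyelinating Schwann cells, went from 24.9 and 21.5 FPKM to 45.5 and 41.1 FPKM and stood at 27.6% of its uncrushed mean at day 7. Those that fell were Nrcam (26.7 and 27.3 FPKM at day 5, 17.1 and 16.9 FPKM at day 7), the membrane linker Msn and the spectrins Sptbn1 and Sptan1. Without day 5 replicate 1 or day 5 replicate 2, 1 member was higher and 0 lower, without day 7 replicate 1 none was called, and without day 7 replicate 2, 3 were higher and 1 lower.

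Among 26 regulators of the Schwann lineage and of myelination none passed the test, 1 of 14 ERK feedback regulators did, and the lineage list had a median of 0.11. Sox10, which keeps Schwann cell identity, was measured at 63.9 and 66.3 FPKM at day 5 and at 85.3 and 95.5 FPKM at day 7 (log2 fold change 0.46 ± 0.12, adjusted p = 0.0822). Egr2, the master regulator of myelination, stood at 81.8 and 72.8 FPKM and then at 85.5 and 106 FPKM (0.29 ± 0.12, adjusted p = 0.280). Jun, a driver of the repair state, stood at 244 and 245 FPKM and then at 259.8 and 280.2 FPKM (0.13 ± 0.10). The day 7 mean of Jun was 68.2% of its uncrushed mean. The risen ERK-linked gene, called without day 7 replicate 2 but not without any of the other libraries, was Etv1, an ETS transcription factor, which went from 5.33 and 5.69 FPKM to 13.2 and 9.59 FPKM (1.03 ± 0.14 on the log2 scale, adjusted p = 0.010).

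Genes of the repair state had a median of -0.25, with 3 of 27 lower and 2 higher. Spp1 (osteopontin) fell from 54.6 and 60.9 FPKM to 33.6 and 30.9 FPKM, Gpc1, a heparan sulfate proteoglycan, fell from 86.2 and 95.6 FPKM to 50.3 and 58.0 FPKM, and Gfap fell from 25.8 and 28.1 FPKM to 19.0 and 17.8 FPKM. The 2 risen members were Ncam1 and the cadherin Cdh2. Of the 27 genes, 19 were higher and 7 lower at day 3 than in uncrushed cells. Gfap, Ncam1 and Cdh2 were among the lower ones, and at day 7 they stood at 19.4%, 27.6% and 15.6% of the uncrushed mean. Gpc1 was among the higher ones and stood at 1028% at day 7. Spp1, Gfap and Cdh2 lost their call when any 1 of the 4 libraries was left out, Gpc1 kept it only without day 7 replicate 2, and Ncam1 lost it without day 5 replicate 2 or day 7 replicate 1. Gfap (adjusted p = 0.0497) was also not called under upper quartile scaling or with DESeq2 size factors. None of 22 neurotrophic and growth factor genes was called. Gdnf, a survival factor for motor neurons, was measured at 42.3 and 53.2 FPKM at day 5 and at 23.4 and 30.3 FPKM at day 7 (log2 fold change -0.85 ± 0.22, adjusted p = 0.0824). Its coreceptor Gfra1 was measured at 598 and 617 FPKM and then at 475 and 468 FPKM, at an adjusted p of 0.235. The low-affinity neurotrophin receptor Ngfr stood at 809 and 714 FPKM and then at 558 and 751 FPKM, with overlapping groups. Runx2 and Tnc did not pass the test, at adjusted p of 0.178 and 0.192. Of the 30 genes that the study names, 6 rose and 4 fell, and this list was chosen on these samples and is not independent evidence.

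Edn3 and Sema5a belong to the genes that the study names, and the other genes described next are among those with the lowest p. Edn3, the ligand endothelin 3, was listed at 0 in uncrushed cells. It stood at 49.0 and 44.4 FPKM at day 5 and fell to 12.4 and 13.8 FPKM at day 7 (log2 fold change -1.85 ± 0.19, adjusted p = 0.00379). Nbl1, an antagonist of bone morphogenetic proteins, fell from 63.9 and 73.4 FPKM to 37.2 and 37.2 FPKM. Nkd2, an inhibitor of Wnt signaling, fell from 11.8 and 11.3 FPKM to 5.34 and 6.20 FPKM, and the ephrin receptor Epha4 from 10.7 and 11.6 FPKM to 5.06 and 6.41 FPKM. Without day 7 replicate 1 Edn3, Nbl1 and Epha4 were not called, and Epha4 was also not called without day 5 replicate 2. Upward, Sema5a, a guidance protein of the semaphorin family, rose from 0.990 and 0.670 FPKM to 5.31 and 3.67 FPKM (2.42 ± 0.22, adjusted p = 0.00203), which was still 7.38% of its uncrushed mean. Dusp15, a phosphatase, rose from 4.02 and 5.07 FPKM to 15.0 and 12.1 FPKM, and the kinase gene Map3k1 from 3.66 and 3.41 FPKM to 10.9 and 11.4 FPKM, 92.2% of its uncrushed mean. Map3k1 was not called in the fit of all 16 libraries. Gypc, a membrane skeleton protein, rose from 0.510 and 0.770 FPKM to 5.58 and 3.65 FPKM (2.75 ± 0.26).

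The lysosome and phagocytosis list had 6 of 37 members lower, none higher and a median of -0.22. Gpnmb, a glycoprotein of phagocytic vesicles, fell from 28.1 and 31.4 FPKM to 12.4 and 15.8 FPKM (log2 fold change -1.09 ± 0.13, adjusted p = 0.00522). Lipa, the acid lipase that frees cholesterol from its esters in lysosomes, fell from 86.3 and 90.5 FPKM to 40.7 and 52.9 FPKM (-0.94 ± 0.13). Npc2, which carries cholesterol out of the lysosome, fell from 103 and 117 FPKM to 72.4 and 69.2 FPKM. The proteases Ctsa and Ctsb fell by 0.51 ± 0.11 and 0.50 ± 0.09 on the log2 scale, and Axl, a receptor for apoptotic debris, by 0.61 ± 0.11. Its relative Mertk was measured at 33.0 and 39.9 FPKM and then at 22.1 and 27.6 FPKM, at an adjusted p of 0.0616. At day 7 Lipa was at 785% and Gpnmb at 324% of the uncrushed mean. The count of fallen members was 1 without day 5 replicate 1, 0 without day 5 replicate 2 or day 7 replicate 1, and 2 without day 7 replicate 2.

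Itgax and Fyb, genes best known from myeloid cells and lymphocytes, were among the clearest falls. Itgax had 293 and 295 expected counts at day 5 and 48 and 50 at day 7, a log2 fold change of -2.35 ± 0.22 (adjusted p = 0.00211). Fyb, an adaptor of integrin signaling, had 369 and 330 counts and then 113 and 55 (-1.88 ± 0.18). In the same libraries Ptprc, which encodes CD45, had 26 and 19 counts at day 5 and 14 and 8 at day 7, and Cd68 had 23 and 14 and then 23 and 17. At day 5 Itgax stood at 3.39 and 3.85 FPKM in Schwann cells and at 2.59 and 1.43 FPKM in whole nerve. For Fyb these levels were 3.84 and 3.87 FPKM in Schwann cells and 9.88 and 8.97 FPKM in whole nerve. Neither Ptprc nor Cd68 was called, and the part of myeloid cells in the fall of Itgax and Fyb was not tested.

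Cell division genes lay lower at day 7, with few calls in purified cells. Of 51 mitotic genes 49 had a log2 fold change below 0, with a median of -0.33, and 3 were called. Tpx2, a spindle assembly factor, fell from 79.6 and 81.3 FPKM to 49.8 and 52.8 FPKM (-0.66 ± 0.11 on the log2 scale, adjusted p = 0.0190). The kinetochore gene Cenpf fell from 52.8 and 48.6 FPKM to 33.7 and 35.1 FPKM, and the kinesin gene Kif20a from 14.8 and 17.4 FPKM to 11.5 and 10.2 FPKM. Of 40 replication genes 34 lay below 0, with a median of -0.30, and 2 were called, the helicase subunit Mcm6 and the thymidine kinase Tk1. Tpx2 at day 7 still stood at 166% and Cenpf at 186% of the uncrushed mean. Cdkn1c, an inhibitor of cyclin-dependent kinases, rose from 7.39 and 6.19 FPKM to 11.6 and 12.5 FPKM. Neither Cdkn1c nor any of the mitotic or replication genes was called when any 1 of the 4 libraries was left out.

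**Figure D3:**
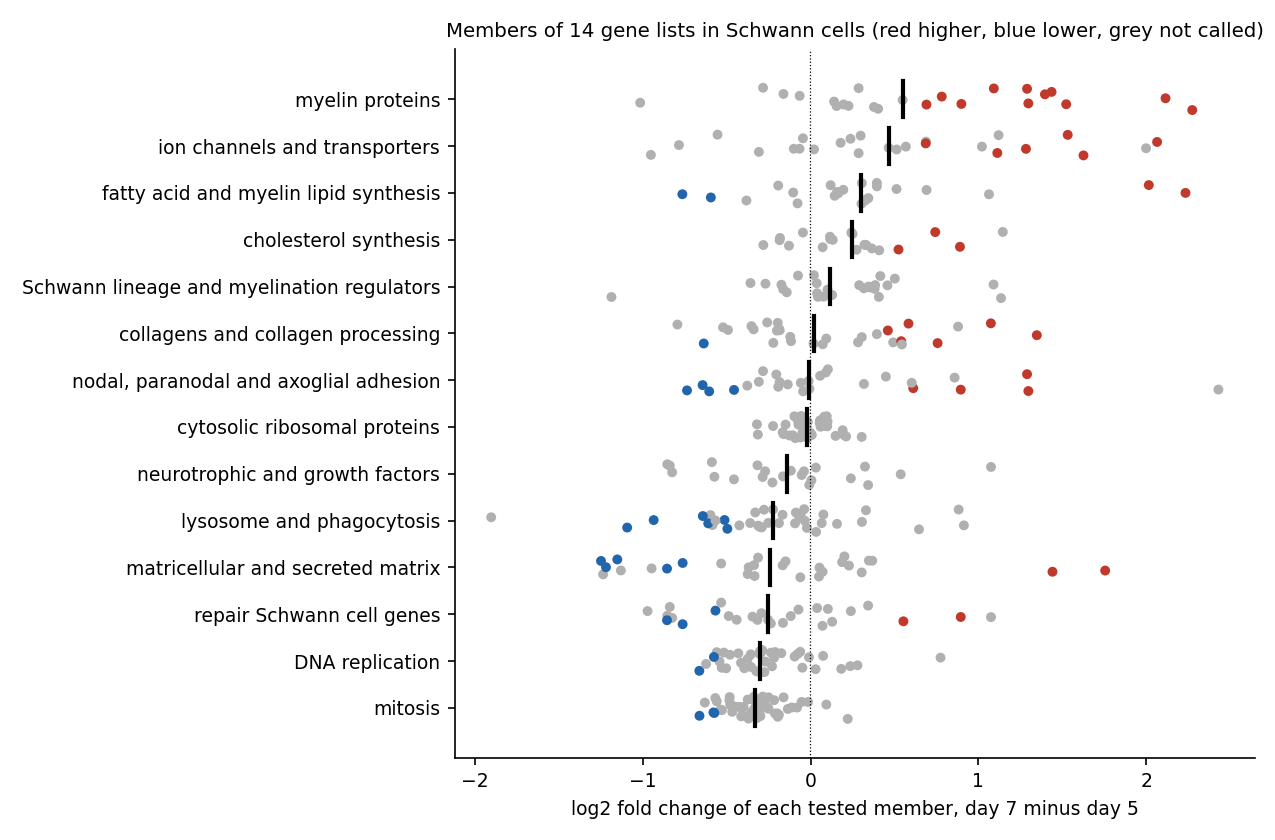
Change of every tested member of 14 gene lists (log2 fold change, day 7 minus day 5, horizontal axis), with red for members called higher, blue for members called lower and grey for the rest. Black bars are the medians, from 0.55 for myelin proteins to -0.33 for mitosis, and the dotted line is the median of all genes.

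Of 20 collagen chains tested 6 rose and none fell, with a median log2 fold change of 0.35. With the enzymes and chaperones that process collagen, the list of 29 tested genes had 6 higher, 1 lower and a median of 0.02. The paired basement membrane chains rose together, Col4a1 from 12.5 and 11.5 FPKM to 20.3 and 20.7 FPKM and Col4a2 from 12.8 and 12.2 FPKM to 27.1 and 25.9 FPKM (log2 fold change 1.07 ± 0.09, adjusted p = 0.00201). Col3a1 rose from 46.2 and 37.2 FPKM to 125 and 89.3 FPKM, and Col5a1, Col16a1 and Col27a1 rose by log2 fold changes of 0.46 to 0.58. Plod1, which hydroxylates lysines of collagen, fell. The receptors Itga1 and Itga2, integrin subunits that bind collagen, rose from 5.53 and 3.88 FPKM to 10.5 and 11.1 FPKM and from 1.97 and 1.56 FPKM to 3.51 and 2.90 FPKM. Itga1 was called without day 5 replicate 1 and otherwise neither was with a library left out. Outside the list, Col2a1, the fibrillar collagen of cartilage, had the lowest p of all genes. It rose from 2.42 and 2.48 FPKM to 15.5 and 12.01 FPKM (2.48 ± 0.15, adjusted p = 2.74e-04), 81.7% of its uncrushed mean. Of the collagens named here, only Col2a1 and Col4a2 kept their call in every fit with a single library left out. Col3a1 is also a fibroblast marker, and of the 11 fibroblast markers tested 6 had a log2 fold change below 0. The part of fibroblast RNA in the rise of collagens was not tested.

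Secreted matrix proteins moved both ways, with 2 of 28 higher and 5 lower. Sparcl1 rose from 9.34 and 7.65 FPKM to 36.5 and 21.4 FPKM (log2 fold change 1.76 ± 0.23, adjusted p = 0.010), which was 3.48% of its uncrushed mean. Postn (periostin) rose from 30.9 and 25.6 FPKM to 90.0 and 64.6 FPKM, to 227% of the uncrushed mean. Thbs4 fell from 114 and 134 FPKM to 56.5 and 56.2 FPKM, and Igfbp5, a binding protein of insulin-like growth factors, from 19.2 and 19.3 FPKM to 8.18 and 8.49 FPKM. Spp1, Gpc1 and Vcan were the other fallen members. Without either day 5 replicate only Igfbp5 was called in this list, and without day 7 replicate 1 only Sparcl1. Among proteases and their inhibitors Mmp19 and Serpine2 fell, by 1.45 ± 0.23 and 0.98 ± 0.18 on the log2 scale, and Adam17, a sheddase of membrane proteins, rose by 0.64 ± 0.10. With a library left out, Adam17 was called only without day 7 replicate 2, Serpine2 only without day 5 replicate 1, and Mmp19 only without day 5 replicate 2 or day 7 replicate 2.

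Glycolysis and the cytoskeleton changed in a few members each, 18.2% and 13.9% of those tested, against 1.95% of all genes. Pgam1, Pkm and Ldha fell by 0.57 ± 0.10, 0.64 ± 0.12 and 0.52 ± 0.10 on the log2 scale, and Aldoc rose from 13.2 and 13.7 FPKM to 24.2 and 21.2 FPKM, among 22 genes of glycolysis and lactate. The tubulins Tuba1b and Tuba1c, the tropomyosin Tpm1 and Gfap fell, and Marcks rose, among 36 genes of the cytoskeleton. None of these members was called when any 1 of the 4 libraries was left out, except Aldoc without day 7 replicate 2. No member was called among 26 cytokine and chemokine genes, 21 interferon response genes, 5 genes of MHC class II, 27 genes of the unfolded protein and heat shock responses, 40 ribosomal protein genes and 37 nuclear genes of oxidative phosphorylation. Ribosomal proteins lay within log2 fold changes of -0.32 and 0.30. The histone list had 1 risen gene of 15, Hist1h2bh. Of 28 immediate-early genes 1 rose, Socs3, an inhibitor of cytokine signaling, from 40.7 and 37.8 FPKM to 59.3 and 55.2 FPKM. Socs3 and Hist1h2bh were not called with any 1 library left out.

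Most changes had the opposite direction to the early response to injury, which is not the same as a return to the uncrushed level. Day 3 was compared with uncrushed Schwann cells in the same fit, and these groups share no library with days 5 and 7. Of the 14961 genes, 26.9% were higher and 25.7% lower at day 3. Among the 176 genes that rose from day 5 to day 7, 155 (88.1%) had been lower at day 3, 11 had been higher and 10 had not changed by the test, and the 155 are 4.04% of all genes lower at day 3. Among the 115 that fell, 96 (83.5%) had been higher at day 3, 7 lower and 12 not called, and the 96 are 2.39% of the genes higher at day 3. The first share was 84.1% to 91.6% when a single library of days 5 and 7 was left out, and the second 73.3% without day 5 replicate 2, 50% of 6 genes without day 7 replicate 1 and 84.6% to 85% without either of the others.

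The 155 genes stood at a median of 16.8% of the uncrushed level at day 3, 25.1% at day 5 and 52.1% at day 7, where 27 of them had reached the uncrushed mean. For 94 of the 96 fallen genes with an uncrushed level above 0, the medians were 340% at day 3, 299% at day 5 and 187% at day 7. The 11 risen genes that had been higher at day 3 included the mitochondrial genes ND2, ND4L and ND6, which stood at 97.6%, 100.7% and 92.5% of the uncrushed mean at day 5 and at 165%, 195% and 172% at day 7. The 7 fallen genes that had been lower at day 3 included Epas1 and LOC100362814.

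**Figure D4:**
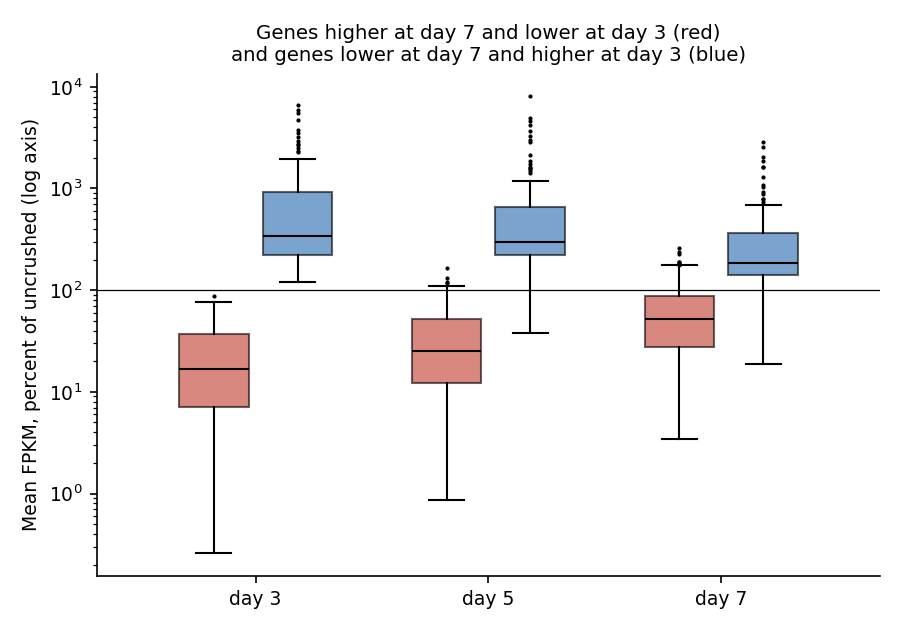
Mean FPKM at 3, 5 and 7 days as percent of the uncrushed mean (log axis) for the 155 genes that rose from day 5 to day 7 after being lower at day 3 (red) and the 96 that fell after being higher (blue). Boxes show quartiles and medians and whiskers reach 1.5 times the box; the median of the red genes was 52.1% and that of the blue genes 187% at day 7, and the direction at day 3 was part of the choice of genes.

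Whole nerve at the same days was set beside the purified cells. There 1172 of 15831 genes were called (7.40%), 578 higher (3.65%) and 594 lower (3.75%). Of the 291 genes of Schwann cells 256 had the same direction, 134 were called in the same direction and 3 in the opposite one. The log2 fold changes of both tissues correlated at r = 0.595 over these 291 genes and at 0.212 over the 14030 genes tested in both. The 134 are 46.0% of the Schwann cell genes and 11.4% of those of whole nerve. The difference between both tissues in the change from day 5 to day 7 was called for 53 of 16829 genes (0.315%), 23 of which were among the 291. The number of 53 was 23 without Schwann cell day 5 replicate 1, 15 without replicate 2 of that group, 5 without Schwann cell day 7 replicate 1 and 83 without replicate 2 of that group. It was 22 and 17 without whole nerve day 5 replicates 1 and 2, and 15 and 53 without whole nerve day 7 replicates 1 and 2. In whole nerve itself the number called was 398 and 323 without day 5 replicates 1 and 2, and 520 and 862 without day 7 replicates 1 and 2.

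Myelin genes rose in both tissues, with 14 of 24 members called in whole nerve and a median of 0.87 there, and none had a called difference. The log2 fold change of Pmp22 was 1.83 ± 0.14 in whole nerve, and that of Prx was 2.37 ± 0.16. Mitotic genes fell in 44 of 51 members in whole nerve, with a median of -0.86, against 3 of 51 in purified cells. The difference between the tissues was called for 1 of the 51, Smc4, at 1.14 ± 0.15, and that call was lost without Schwann cell day 7 replicate 1. Leaving out a whole nerve library gave 27 to 40 fallen mitotic genes there, with 27 without day 5 replicate 2. Interferon response genes were higher in 11 of 23 members in whole nerve and in none of 21 in purified cells, with no called difference for any of 24. The 11 became 7 without day 5 replicate 1 or day 7 replicate 1 of whole nerve and 6 without day 5 replicate 2.

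Basement membrane collagens and Col3a1 differed between the tissues by the test. Col4a1 rose in Schwann cells and fell in whole nerve by 0.58 ± 0.10 on the log2 scale, and the difference was 1.35 ± 0.14 (adjusted p = 0.00119). The difference for Col4a2 was 1.36 ± 0.20 (adjusted p = 0.00876) and that for Col3a1 1.54 ± 0.30 (adjusted p = 0.0466). At day 5 whole nerve held Col4a1 at 69.3 and 59.05 FPKM, against 12.5 and 11.5 FPKM in Schwann cells. For Col3a1 these levels were 2543 and 2417 FPKM, against 46.2 and 37.2 FPKM. The part of other cell types in the whole nerve changes was not tested. Sema5a and Gypc rose in purified cells and were not called in whole nerve, where their log2 fold changes were 0.25 and -0.12, and the differences were 2.17 ± 0.28 and 2.88 ± 0.29. In the other direction Fyb, Gpnmb, Npc2 and Igfbp5 fell in purified cells and were not called in whole nerve, where their log2 fold changes were -0.22, -0.12, 0.20 and -0.12. The differences were -1.64 ± 0.19, -0.96 ± 0.16, -0.83 ± 0.12 and -1.09 ± 0.17. Of the differences given here, those of Col4a1, Sema5a, Gypc and Fyb were called in all 8 fits with a library left out. That of Col4a2 was called in 6 of the 8, not without Schwann cell day 5 replicate 2 or day 7 replicate 1, those of Npc2 and Igfbp5 in 3, that of Gpnmb in 2 and that of Col3a1 in 1, the fit without Schwann cell day 7 replicate 2. Gpnmb stood at 109 and 115 FPKM in whole nerve at day 5 and at 98.4 and 107 FPKM at day 7, which is above its level in Schwann cells.

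**Figure D5:**
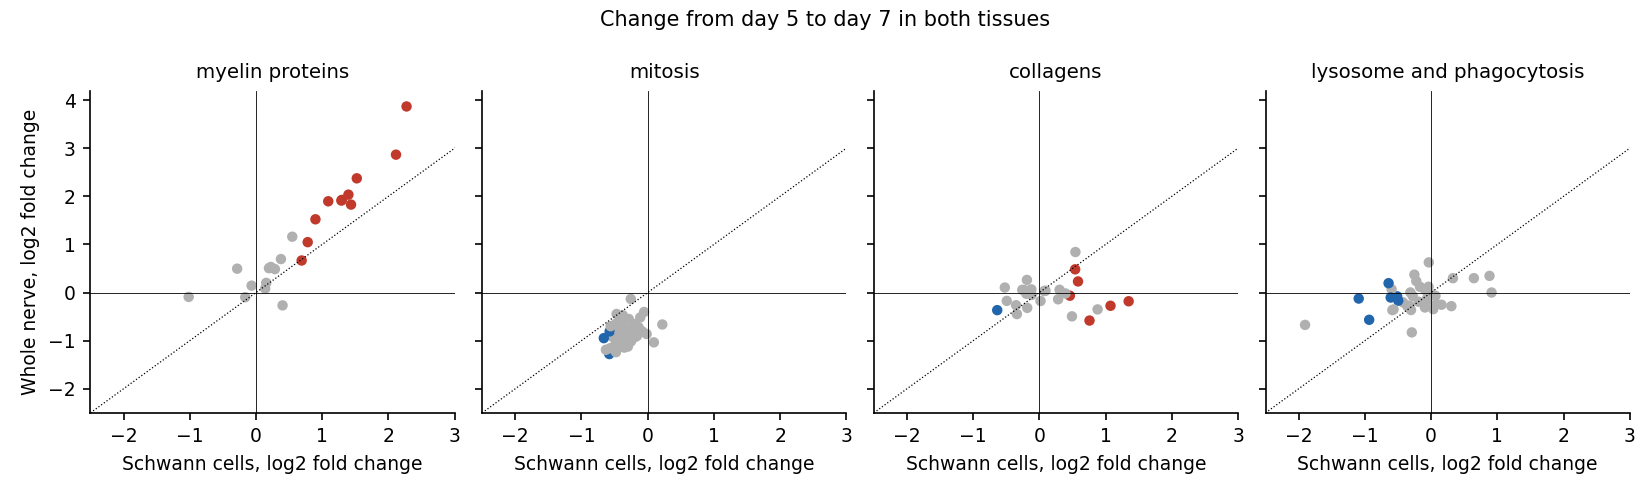
Change from day 5 to day 7 in Schwann cells (horizontal axis) and whole nerve (vertical axis), both as log2 fold change, for members of 4 gene lists (the collagen panel holds collagen processing genes too), coloured by the call in Schwann cells (red higher, blue lower, grey not called), with equality as a dotted line. Called myelin genes lie along the line or above it, most mitotic genes below it, and Col3a1, Col4a1 and Col4a2 below it as well; Col1a2, listed at 0 in both whole nerve libraries of day 5, is not drawn.

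A few calls rested on very low values in the libraries of 1 day. NEWGENE_1582994 had 153 and 128 expected counts at day 5 and 0 in both libraries of day 7, which is at least 38.7-fold lower against a floor of 3 counts per library. DESeq2 gave no adjusted p for it. Srm, the spermidine synthase gene, had 339 and 379 counts at day 5 and 0 and 23.8 at day 7, and in whole nerve 1 library of day 5 was also listed at 0 FPKM, where the other held 25.3. The log2 fold change of Srm, -4.63 ± 0.64, ranged from -11.47 to 0.32 over the alternative settings. Srm was not called by DESeq2 or in the fit of all 16 libraries. It had the opposite sign in the Cufflinks values that the authors deposited, at 0.13. LOC100912393 was at least 4.23-fold lower, and Ddn and LOC100911548 were at least 6.53-fold and 5.87-fold higher. Sec14l5 rose from 8 and 10 counts to 169 and 71 (3.87 ± 0.36 on the log2 scale).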

How the data were processed

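RNA of purified Schwann cells and of whole sciatic nerve was measured in 16 libraries. The authors made libraries from amplified cDNA (Ovation RNA-seq System V2), without molecular identifiers and without keeping strand, aligned reads with STAR to Rnor_6.0 and deposited RSEM expected counts of 31038 genes, which are not normalized. The authors' FPKM and TPM come from the same RSEM step and are scaled to gene length and library. TPM was not used. The authors also deposited a table of 6274 genes with Cufflinks FPKM. Per-sample columns left unused numbered 0.

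Expected counts were rounded and tested with edgeR 4.0.16 (R 4.3.3) by quasi-likelihood, after TMM scaling and filterByExpr, with Benjamini-Hochberg adjustment over all genes tested at 0.05. The fit held the 8 Schwann cell libraries, whose groups share the estimate of spread. Whole nerve was fitted alike, and the difference between tissues in a fit of all 16 libraries. Standard errors were taken as the size of each log2 change over the root of its F statistic. Totals per library lay between 10555067 and 27562637, and 3 counts were taken as floor. Bounds cover counting error only. The code was tested on simulated counts.

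Named genes were the 12 with the lowest p in each direction, the 6 with the largest fold at 1 FPKM or more, up to 3 called members of each list per direction (or the member with the lowest p), the 5 per direction that differed most from whole nerve, genes the study names, called markers of other cells, and the 3 per direction with the same and with the opposite call at day 3. Some genes that these rules name are not reported here. Further members of lists, genes beside the floor, Cnp, Dhh, Egr2 and Cd68 were named after their values were seen. The genes, 29 functional and 13 marker lists were chosen with earlier results of these data known. Replicate numbers did not pair the libraries (correlation of deviations 0.03 between day 5 and day 7, and -0.05 to 0.05 over all Schwann cell pairs). Promoters are from RefSeq (GRCr8), and no genome of Rnor_6.0 was used here. Alternatives were DESeq2 1.42.0, other scaling, filters and samples, the replicate block, leaving out each library, and limma 3.58.1 on log2 of Cufflinks FPKM plus 1, a scale that understates changes of low genes. Summaries and plots used Python 3.11.15, pandas 2.3.3 and matplotlib 3.10.9.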

Additional observations from a re-analysis of the deposited data

Results flagged for a closer look

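The change from day 5 to day 7 differed between Schwann cells and whole nerve for 53 of 16829 genes (edgeR quasi-likelihood test of the difference). The values below are differences in log2 fold change, Schwann cells minus whole nerve, for the named genes among them. With each of the 8 libraries left out in turn, only Col4a1, Fyb, Gypc, Nr1d1 and Sema5a of these genes were called in all 8 fits, Cryab, LOC100362814 and Smc4 were lost without Schwann cell day 7 replicate 1 alone, and Epas1 and NEWGENE_1582994 were called in 0.

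In matrix genes the difference was 1.54 for Col3a1, 1.35 for Col4a1, 1.36 for Col4a2, 1.79 for Postn and 1.54 for Sparcl1. It was 2.88 for Gypc, 2.17 for Sema5a, 0.89 for Cdh2, 1.07 for Etv1 and 1.14 for Smc4. Nr1d1, a repressor of the circadian clock, rose in Schwann cells by 0.61 and fell in whole nerve by 1.25, a difference of 1.87.

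In the other direction the difference was -1.64 for Fyb, -0.96 for Gpnmb, -0.83 for Npc2, -1.09 for Igfbp5 and -0.72 for Epas1. For Cryab, a small heat shock protein, it was -1.59, with log2 fold changes of 0.03 in Schwann cells and 1.63 in whole nerve. It was -1.46 for Sbspon and -1.45 for LOC100362814. NEWGENE_1582994 had a fitted difference of -10.80, which depends on the prior count because both Schwann cell libraries of day 7 held 0 counts.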

How the results depend on the processing

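With 2 libraries a group, the number of calls depended on the setting more than the direction did. Of the 291 genes called in Schwann cells, none changed direction in any fit on expected counts, and 16 of the 90 called genes that the naming rules picked were called in every alternative that gave them an adjusted p (12 higher, 4 lower). The cause of the differences in counts was not tested, and depth limits statements on genes below about 10 counts.

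The count of 291 became 543 with DESeq2, 1048 without a filter, 441 with the compared groups only, 472 with all 16 libraries, 895 with Cufflinks values (78 higher, 817 lower, median shift of all genes -0.20) and 31 to 123 when 1 library was left out. Upper quartile scaling split the calls into 204 higher and 82 lower, and equalised Cufflinks medians, chosen after seeing the data, into 184 and 119. With the replicate block 179 genes were called, 169 of them among the 291, and the numbers did not pair the libraries. In whole nerve 2247 genes were called without a filter and 323 to 862 with a library left out. The count of 53 genes that differed between tissues became 236 with DESeq2, 629 without a filter, 87 with at least 10 counts in every library and 5 to 83 with a library left out.

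The share of risen genes lower at day 3 was 72.0% without a filter, 79.8% with the compared groups only and 97.4% with Cufflinks values. That of fallen genes higher at day 3 was 70.2% without a filter, 91.6% with equalised medians and 50% to 85% with a library left out.

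Genes without a call that changed sign were Cited2 at 0.021 under upper quartile scaling and, in the Cufflinks values, Cryab at -0.20 (-0.011 with equalised medians), Jun at -0.045, L1cam at -0.030 and Smc4 at -0.083. The called gene Srm stood at 0.13 and 0.32 there, and Arl14ep also turned. With a library left out Ager ranged from -0.51 to 0.0088, Bdnf from -0.26 to 0.63, Cited2 from -0.44 to 0.32, Cryab from -0.18 to 0.22, Dcn from -0.013 to 0.84 and L1cam from -0.10 to 0.34.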

Other observations

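Genes of the mitochondrial genome were looked at after their values were seen. All 13 protein genes had a log2 fold change above 0 from day 5 to day 7 in Schwann cells, from 0.31 to 0.99 with a median of 0.75, and 6 were called higher (ND2, ND3, ND4, ND4L, ND6 and ATP6). The number called was 4 without day 5 replicate 1, 0 without day 5 replicate 2, and 2 without either replicate of day 7. ND4L, a subunit of respiratory complex I, went from 3748 and 3578 FPKM to 6623 and 7598 FPKM. As a share of all counts they made up 4.12% and 3.21% in the libraries of day 5, then 4.86% and 5.44% in those of day 7. Uncrushed cells had 2.90% and 3.65%, and day 3 had 5.70% and 5.86%. None of the 37 nuclear genes of oxidative phosphorylation was called, with a median of -0.08. In whole nerve 5 of the 13 were higher, with a median of 0.37, and none had a called difference between tissues. Strand was not kept, so ND6 cannot be told apart from genes on the opposite strand.

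Dct, an enzyme of melanin synthesis, had a course of its own among the fallen genes. Uncrushed cells held 2.49 and 2.56 FPKM and those of day 3 held 0.580 and 0.460 FPKM. Day 5 brought 5.02 and 5.13 FPKM, followed by 2.02 and 1.40 FPKM on day 7 (log2 fold change -1.57 ± 0.24, adjusted p = 0.0159). The call was lost with any 1 of the 4 libraries left out, and DESeq2 gave no adjusted p for this gene. Dct fell in whole nerve too, by 1.92 on the log2 scale. Dct was called lower both at day 3 and from day 5 to day 7, with its highest level at day 5.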
